A study of Mus musculus with 9 samples.

Results

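Hedgehog signalling genes were followed in RNA-seq of organoids from mouse colon, which are epithelial cultures grown from crypts. The set held 7 genes of the 48795 in the deposited table. They were the ligand genes Ihh and Shh, the ligand-processing genes Hhat and Disp1, and the receptor and transduction genes Ptch1, Smo and Sufu, each found by matching its Ensembl identifier to a GENCODE symbol. The set was chosen by the Ihh values, which differed between the groups, so these are given as a description, without a test.

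Cultures were made from wild-type (WT) animals or from animals lacking epithelial AHR (AHR KO), the aryl hydrocarbon receptor, a transcription factor activated by ligands. Per the methods of the study, the AHR KO carried floxed Ahr alleles deleted in the epithelium by a Villin-driven Cre, and the WT were littermates. All cultures grew in WENR, a medium that supplies Wnt, and received the solvent DMSO or 5 nM of the AHR ligand FICZ for 4 h. WT FICZ had 3 libraries (replicates 1, 2 and 3), WT DMSO had 2 (replicates 2 and 3), and AHR KO had 2 with each treatment (replicates 1 and 3). The study describes biological replicates, but the labels do not say which libraries share a mouse, so part of the spread between libraries may be technical.

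In the intestine, Hedgehog ligands are made by epithelial cells and signal mainly to the mesenchyme beneath them. Hhat attaches palmitate to the ligand and Disp1 releases the lipid-bearing ligand from the cell. At a receiving cell the ligand binds Ptch1, which otherwise holds Smo inactive, and Smo in turn relieves the hold of Sufu on the Gli transcription factors. Ptch1 and Gli1 are themselves standard readouts of the pathway, and in the colon Ihh is best known as a product of differentiated epithelial cells.

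Values are normalised read counts as deposited. The 9 libraries summed to between 23177058 and 25033827 of these units, and 1 read was worth about 0.802 to 1.1 of them, which puts the depth near 21.5 to 30.1 M reads. Epithelial marker genes were abundant in every library, whereas 6 of 8 fibroblast markers and all 5 immune markers lay under 3 units in all libraries. Of the other fibroblast markers Col1a1 reached 4.34, and Pdgfrb, a receptor gene, read 15.3 to 110.1 and moved with the groups as described beside Ihh. Smooth muscle markers summed to at most 4.7 units and endothelial markers to at most 5.27. The enteric neuron and glia list summed to 49.3 to 99.1 units through Ret, a receptor gene that was higher with FICZ in WT (0.61 ± 0.18, log2, adjusted p = 0.0272 in limma) and in AHR KO (0.74 ± 0.20, adjusted p = 0.0266), while Sox10 and S100b were listed at 0 throughout. The part of Ret-expressing cells in the results was not tested. Ahr itself was higher in the libraries labelled AHR KO, at 1346 to 1443 against 783 to 858 in WT. Whether the counted exons include the deleted part is not stated, so Ahr does not check the deletion. Cyp1a1, the classical AHR target, read 6987 to 7958 in WT FICZ, 100 and 139 in AHR KO FICZ, and at most 5.84 under DMSO.

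For the comparisons, 12741 genes with a mean of 10 units or more were fitted with limma on log2(value + 1), and a gene was called at an adjusted p under 0.05 over all of them. Of the 7 genes 6 entered the fit, and Shh did not. For genes with low values this scale makes a change look smaller.

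Sequence around gene starts was searched for the DNA words bound by AHR and by Gli. RefSeq promoter windows (GRCm38.p6, from 250 bases before to 50 bases after the start) were found for 6 of the 7 genes, 7 windows in all. The windows of Ihh, by whose values the set was chosen, and of Ptch1 and Sufu, called with FICZ in WT, are shown 5′ to 3′ along the gene. The Ptch1 window and 1 of the 2 Disp1 windows belong to starts inside the gene spans given below. Capitals mark matches to the AHR core word GCGTG, here on the opposite strand and therefore printed as CACGC.
Ihh, chr1:74951623-74951922, minus strand: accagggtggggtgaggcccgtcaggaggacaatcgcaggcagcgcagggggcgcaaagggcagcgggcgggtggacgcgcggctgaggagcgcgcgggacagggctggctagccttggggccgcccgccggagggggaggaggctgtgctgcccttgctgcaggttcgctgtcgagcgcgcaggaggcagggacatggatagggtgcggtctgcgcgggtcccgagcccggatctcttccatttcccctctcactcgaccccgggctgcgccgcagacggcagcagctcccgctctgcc
Ptch1, chr13:63565686-63565985, minus strand: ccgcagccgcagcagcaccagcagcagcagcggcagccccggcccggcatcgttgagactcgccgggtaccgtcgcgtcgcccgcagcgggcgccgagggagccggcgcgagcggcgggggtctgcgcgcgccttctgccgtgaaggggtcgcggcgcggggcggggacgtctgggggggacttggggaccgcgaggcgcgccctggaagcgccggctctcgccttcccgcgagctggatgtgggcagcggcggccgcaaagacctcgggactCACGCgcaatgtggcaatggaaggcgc
Sufu, chr19:46396646-46396945, plus strand: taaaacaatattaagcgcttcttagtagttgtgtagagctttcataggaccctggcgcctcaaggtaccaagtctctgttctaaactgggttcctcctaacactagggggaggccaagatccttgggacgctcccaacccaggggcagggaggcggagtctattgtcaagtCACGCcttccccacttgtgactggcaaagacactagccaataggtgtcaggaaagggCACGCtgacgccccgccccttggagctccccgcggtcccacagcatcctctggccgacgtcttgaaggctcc
The Ihh window held no GCGTG on either strand. The Sufu window held it at positions -79 and -22 from the start, the Ptch1 window at 23, and the Smo window at -227. The longer word TNGCGTG and the Gli word GACCACCCA, both also searched on both strands, were in no window of these genes. TNGCGTG contains GCGTG, so the searches overlap. Among all 32817 windows of the same length, 32.4% held GCGTG, 5.06% TNGCGTG and 0.253% GACCACCCA. A match is a description of letters only.

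Ihh lies at chr1:74945315-74951672 on the minus strand of GRCm38. In WT DMSO the 2 libraries read 40.5 and 47.6. With FICZ the 3 WT libraries read 176.7, 89.1 and 136.5. The AHR KO libraries read 4.3 and 6.97 under DMSO and 23.3 and 17.2 under FICZ. The 4 groups did not overlap, and their order from high to low was WT FICZ, WT DMSO, AHR KO FICZ and AHR KO DMSO. Even with FICZ, both AHR KO libraries stayed below both WT libraries that had received DMSO.

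By group means, Ihh was 134 ± 43.9 (SD, n = 3) in WT FICZ and 44.1 ± 5.03 (n = 2) in WT DMSO, a 3.04-fold difference. In AHR KO it was 20.2 ± 4.31 (n = 2) with FICZ and 5.63 ± 1.89 (n = 2) with DMSO, a 3.6-fold difference. Ihh was therefore higher with FICZ in both genotypes. WT exceeded AHR KO 7.83-fold under DMSO and 6.62-fold under FICZ. The AHR KO DMSO values stand for fewer than 10 reads a library, so that mean is the least precise of the 4.

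On the log2 scale the Ihh difference between FICZ and DMSO was 1.53 ± 0.33 (SE) in WT and 1.69 ± 0.36 in AHR KO. The difference between those responses was -0.16 ± 0.49. With a pseudocount of 10 in place of 1 it was 0.42, so its sign depends on that choice. The AHR KO difference with FICZ was then 0.95. The genotype difference went from -2.79 to -1.79 under DMSO and from -2.63 to -2.21 under FICZ. Ihh is rich in GC, with a GC fraction of 0.623 over its longest transcript. Taking out a trend with GC content and gene length left 1.06 in WT and 1.22 in AHR KO, and left the genotype differences at -2.77 under DMSO and -2.61 under FICZ.

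**Figure D1:**
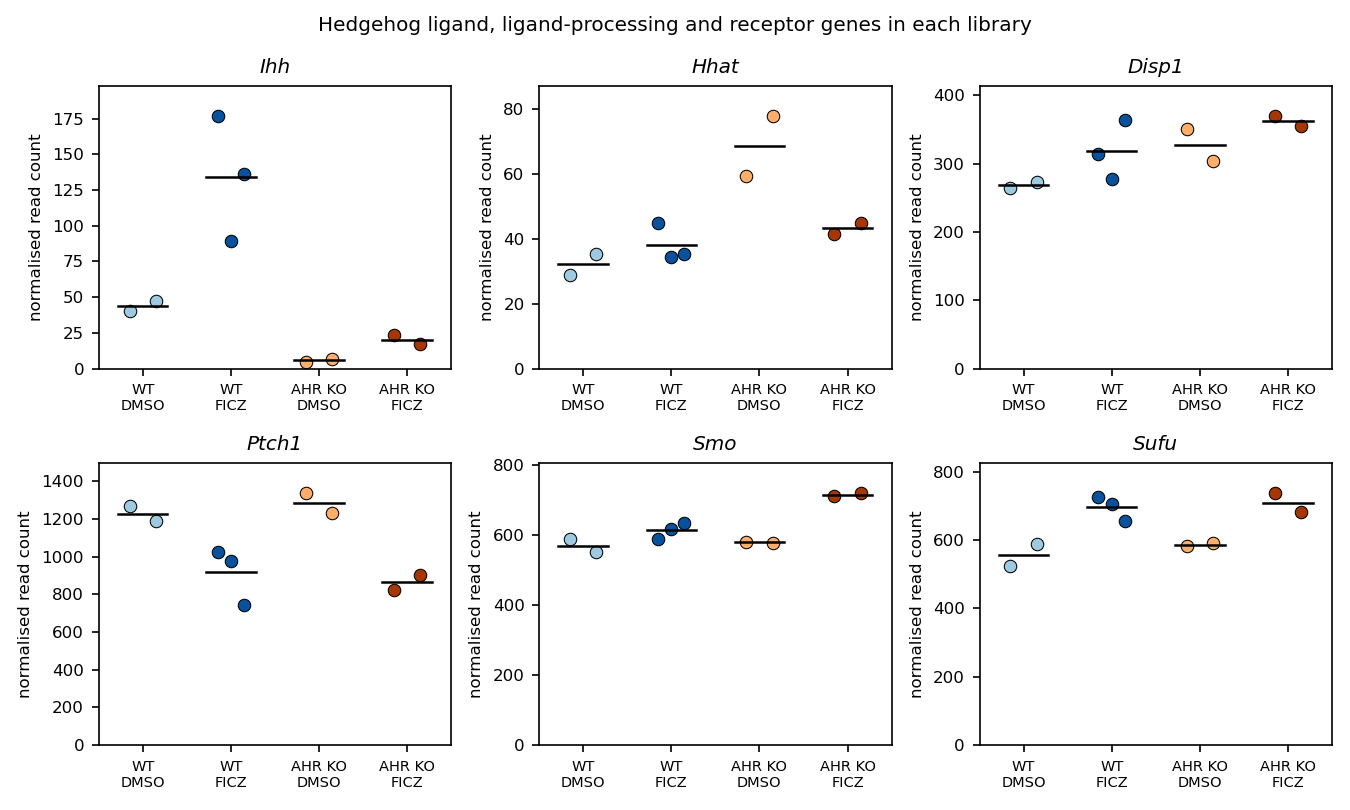
Normalised read count (y axis, linear from 0) of the 6 detected Hedgehog genes in each library of the 4 groups (x axis). Points are libraries and bars are group means. The 3 WT FICZ libraries of Ihh sit between 89.1 and 176.7, above all others, and Ptch1 is lower in both FICZ groups than in both DMSO groups.

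Shh, the other ligand of the set, lies at chr5:28456815-28467256 on the minus strand. It was listed at 0 in each of the 9 libraries. Dhh, the remaining mammalian Hedgehog ligand, stayed below the filter, with its highest value of 12.9 in AHR KO FICZ replicate 3. In WT its highest value was 3.89.

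Markers of mature absorptive colonocytes were lower in AHR KO, as Ihh was. Of 8 colonocyte markers 6 entered the fit, and 4 were called lower in AHR KO under DMSO, where 4.83% of all genes were called lower. Under FICZ Car1, Krt20, Cdhr5, Guca2a and Ceacam20 were called lower, where 10.5% of all genes were. Slc26a3 lay under the filter level in AHR KO FICZ (4.16 and 4.26, against 25.6 to 35.6 in WT FICZ) and entered through the other groups, so it is not counted there. General epithelial markers also differed, with 3 of 8 called lower in AHR KO under DMSO and 3 lower and 1 higher under FICZ. Among them Cdx2, an intestinal transcription factor gene, and Lgals4 had the highest Pearson correlations with Ihh, 0.935 and 0.92 over the 9 libraries, while those of the other 6 ran from -0.868 for Krt18 through -0.366 for Cdh1 and -0.034 for Krt8 to 0.703 for Vil1. With FICZ in WT, Cdx2 rose by 0.80 ± 0.09 (log2, adjusted p = 0.000271 in limma) and Lgals4 by 0.24 ± 0.07 (adjusted p = 0.0305). These were 2 of the 8 epithelial markers, where 15.1% of all genes were called higher. None of the 8 was called in AHR KO (0 at an unadjusted p under 0.05), where 10.2% of all genes were called higher and 9.48% lower. With the GC and length trend taken out Lgals4 was at 0.12 (adjusted p = 0.299). The interaction of FICZ and genotype was called by limma for none of the 8 (1 at an unadjusted p under 0.05). Over all genes 0.377% were called higher and 0.0706% lower for it.

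The summed level of the 8 colonocyte markers was 9057 and 9233 in WT DMSO and 8918 to 11120 in WT FICZ. It was 4924 and 5214 in AHR KO DMSO and 4330 and 5824 in AHR KO FICZ. The WT and AHR KO sums did not overlap, and the FICZ and DMSO sums overlapped within each genotype. None of the 6 colonocyte markers tested was called between FICZ and DMSO in either genotype by limma (1 of 6 in each at an unadjusted p under 0.05), where 15.1% of all genes were called higher and 15.7% lower in WT, and 10.2% and 9.48% in AHR KO. In bulk RNA fewer cells of a type and less RNA per cell cannot be told apart, and the part of these cells in the Ihh values was not tested.

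Guca2a, which encodes the peptide guanylin, had the pattern closest to Ihh among the colonocyte markers (Pearson r = 0.957 over 9 libraries, a description that includes the group differences). It read 66.1 and 57.7 in WT DMSO and 67.9 to 168.8 in WT FICZ. In AHR KO it read 21.3 and 27.6 with DMSO and 35.6 and 28.6 with FICZ. As for Ihh, the 4 groups did not overlap and stood in the same order, but how many of all genes do so was not counted. The other colonocyte markers correlated less: Car4 0.518, Ceacam20 0.642, Slc26a3 0.657, Krt20 0.699, Aqp8 0.745, Car1 0.896 and Cdhr5 0.9085. Ceacam20 was lower with FICZ in WT (375 to 560 against 568 and 614). Slc26a3 was higher with FICZ in WT (25.6 to 35.6 against 16.4 and 24.1) and lower in AHR KO (4.16 and 4.26 against 8.78 and 15.2). Car1, which encodes a carbonic anhydrase of colonocytes, was 1561 to 2530 in WT and 309 to 432 in AHR KO. Krt20, a keratin of surface epithelium, was 853 to 1149 in WT and 429 to 692 in AHR KO.

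**Figure D2:**
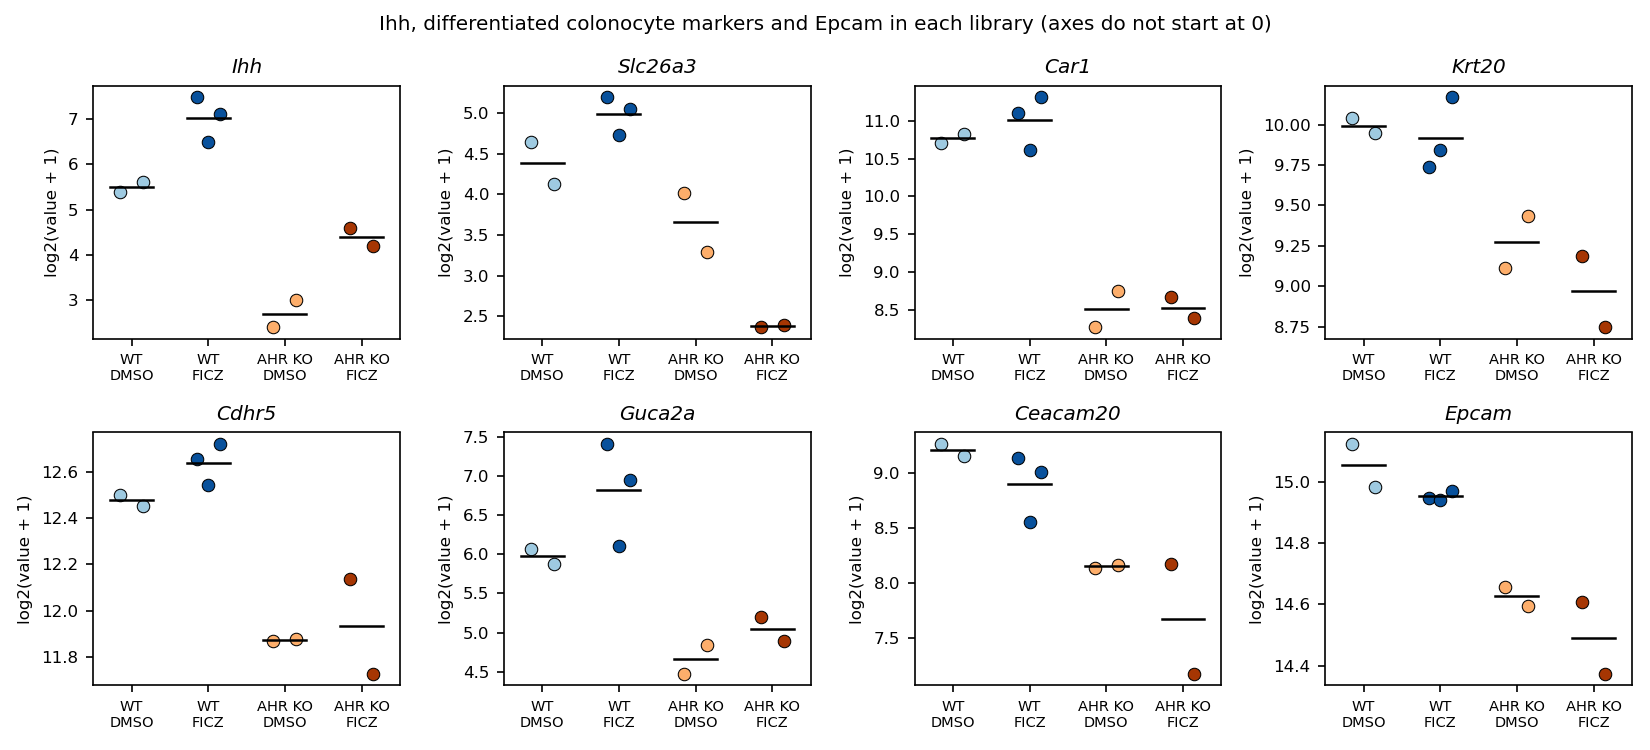
Level of Ihh, 6 colonocyte markers and the epithelial marker Epcam as log2(value + 1) (y axis, not starting at 0) in each library of the 4 groups (x axis). Points are libraries and bars are group means. WT libraries lie above AHR KO libraries for every gene drawn. For Ihh and Guca2a all 4 groups are separate and in the same order. Those of Slc26a3 are separate too, but in AHR KO it is lower with FICZ (4.16 and 4.26, under the filter level) than with DMSO.

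Pdgfrb, the 1 fibroblast marker in the fit, stood in the same group order as Ihh. It read 83.7 and 55.7 in WT DMSO and 110.1, 85.5 and 105.2 in WT FICZ. The AHR KO libraries read 15.3 and 31.3 with DMSO and 32.1 and 34.5 with FICZ. The 4 groups did not overlap, again without a count of how many of all genes do so. It was lower in AHR KO by 1.60 (SE 0.33, log2, adjusted p = 0.0155 in limma) under DMSO and 1.55 (SE 0.30, adjusted p = 0.00533) under FICZ, and was not called between FICZ and DMSO (adjusted p = 0.208 in WT and 0.246 in AHR KO). The DMSO call was lost with the replicate block (0.0569) or without WT DMSO replicate 2 or AHR KO DMSO replicate 1 (highest adjusted p 0.123). The whole fibroblast list, most of it Pdgfrb itself, summed to 57.5 and 85.8 in WT DMSO and 87.5 to 110.9 in WT FICZ. In AHR KO the sums were 19.4 and 32.8 with DMSO and 33.9 and 39.1 with FICZ. Of the other fibroblast markers only Col1a1 (at most 4.34) exceeded 3 units in any library, and Lum was at 0 throughout. The sums therefore add little to the Pdgfrb values. The part of fibroblast markers in the Ihh values was not tested.

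Across all 11804 protein-coding genes in the fit, 368 had a Pearson correlation above 0.9 with Ihh over the 9 libraries. The 5 highest were Lzts3 (0.988), Paqr5 (0.985), Ethe1 (0.984), Cntnap1 (0.983) and Capn1 (0.983). Paqr5, which encodes a membrane progestin receptor, read 378 and 384 in WT DMSO, 499 to 659 in WT FICZ, 179 and 199 in AHR KO DMSO and 262 and 308 in AHR KO FICZ. Its 4 groups stood in the same order as those of Ihh, without overlap, and how many of all genes do so was not counted. Ranked by Spearman's rho instead, Tmem50b, Scamp5 and Spint1 came first (rho = 1), so the likest genes depend on the measure. The points share library and group, and no test applies to them.

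Among the ligand-processing genes, Hhat was higher in AHR KO than in WT under DMSO, and Disp1 passed no test. Hhat lies at chr1:192496711-192771223 on the minus strand. It read 28.9 and 35.2 in WT DMSO and 59.3 and 77.8 in AHR KO DMSO. Under FICZ it read 44.8, 34.4 and 35.4 in WT and 41.4 and 45 in AHR KO. The AHR KO DMSO pair was the highest of all libraries, and the FICZ groups overlapped.

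The Hhat difference between AHR KO and WT under DMSO was 1.07 ± 0.25 (SE, log2), with an adjusted p of 0.0278 in limma. It was the 1 called gene of the 5 tested besides Ihh, where 4.21% of all genes were called higher and 4.83% lower. The call was lost when any of the 4 libraries compared was left out. The adjusted p was then 0.161 without WT DMSO replicate 2, 0.0712 without WT DMSO replicate 3, 0.0678 without AHR KO DMSO replicate 1 and 0.211 without AHR KO DMSO replicate 3. With a replicate block it was 0.0972 and with no filter on low values 0.0779.

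Disp1 lies at chr1:183086266-183221522 on the minus strand. In WT it read 264 and 273 with DMSO and 314.5, 278 and 364 with FICZ. The AHR KO libraries read 351 and 304 with DMSO and 369.5 and 355 with FICZ. Both WT DMSO libraries stood below all others, yet the log2 difference was 0.28 ± 0.13 between AHR KO and WT under DMSO (adjusted p = 0.237) and 0.24 ± 0.12 between FICZ and DMSO in WT (adjusted p = 0.168).

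The receptor gene Ptch1 was lower with FICZ in both genotypes. It lies at chr13:63508328-63573598 on the minus strand. In WT it read 1266 and 1188 with DMSO and 1027, 976 and 745 with FICZ. In AHR KO it read 1339 and 1232 with DMSO and 825 and 904 with FICZ. All 5 FICZ libraries lay below all 4 DMSO libraries, whereas the genotypes overlapped under either treatment.

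Ptch1 fell by 0.43 on the log2 scale in WT (SE 0.12, adjusted p = 0.0223 in limma) and by 0.57 in AHR KO (SE 0.13, adjusted p = 0.0163). The difference between both responses was 0.14 ± 0.18 (adjusted p = 0.949). With the GC and length trend taken out the differences were -0.44 (adjusted p = 0.0318) and -0.55 (adjusted p = 0.0414). The WT call was lost without WT DMSO replicate 2 (adjusted p = 0.129) or replicate 3 (0.0677), and the AHR KO call without AHR KO DMSO replicate 1 (0.125) or replicate 3 (0.0511) or without AHR KO FICZ replicate 1 (0.0774).

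Smo, which encodes the transducer held inactive by Ptch1, differed little between groups. It lies at chr6:29735503-29761365 on the plus strand. In WT it read 588 and 552 with DMSO and 588.5, 618 and 635 with FICZ. AHR KO libraries read 581 and 579 with DMSO and 711 and 722 with FICZ. The AHR KO FICZ pair stood above the other 7 libraries, which spanned 552 to 635.

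The rise of Smo with FICZ in AHR KO was 0.30 ± 0.08 (log2, adjusted p = 0.023 in limma), and AHR KO exceeded WT under FICZ by 0.22 ± 0.07 (adjusted p = 0.0498). The first fell to 0.02 (adjusted p = 0.911) with the GC and length trend taken out, and was lost without AHR KO DMSO replicate 1 (0.121) or 3 (0.0901) or AHR KO FICZ replicate 1 (0.0657) or 3 (0.093). The second lay at the threshold and was called in 4 of 21 alternatives; its adjusted p was 0.0611 to 0.189 with any 1 of the 9 libraries left out. The responses of Smo to FICZ in WT and AHR KO differed by -0.20 ± 0.10 (adjusted p = 0.743), which was not called.

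Sufu, the inhibitor that binds Gli proteins, lies at chr19:46396896-46488804 on the plus strand. In WT it read 522.5 and 589 with DMSO and 726, 705.5 and 656 with FICZ. In AHR KO it read 581 and 590.1 with DMSO and 738 and 680.3 with FICZ. All 5 FICZ libraries lay above all 4 DMSO libraries, and the genotypes overlapped.

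Sufu rose with FICZ by 0.33 ± 0.08 in WT (log2, adjusted p = 0.0141 in limma), while the difference of 0.27 ± 0.09 in AHR KO did not pass (adjusted p = 0.0566). The difference between both responses was 0.05 ± 0.12 (adjusted p = 0.975). With the GC and length trend taken out the WT difference was 0.14 (adjusted p = 0.315), and without WT DMSO replicate 2 it was 0.24 (adjusted p = 0.13).

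Counted over the 5 genes tested besides Ihh, FICZ gave 1 higher (Sufu) and 1 lower (Ptch1) in WT, where 15.1% of all genes were called higher and 15.7% lower. In AHR KO it gave 1 higher (Smo) and 1 lower (Ptch1), where 10.2% were called higher and 9.48% lower. Between genotypes under FICZ 1 was higher (Smo), where 9.48% of all genes were called higher and 10.5% lower. The interaction of FICZ and genotype was called by limma for none of the 5 (1 at an unadjusted p under 0.05), where 0.377% of all genes were called higher and 0.0706% lower.

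**Figure D3:**
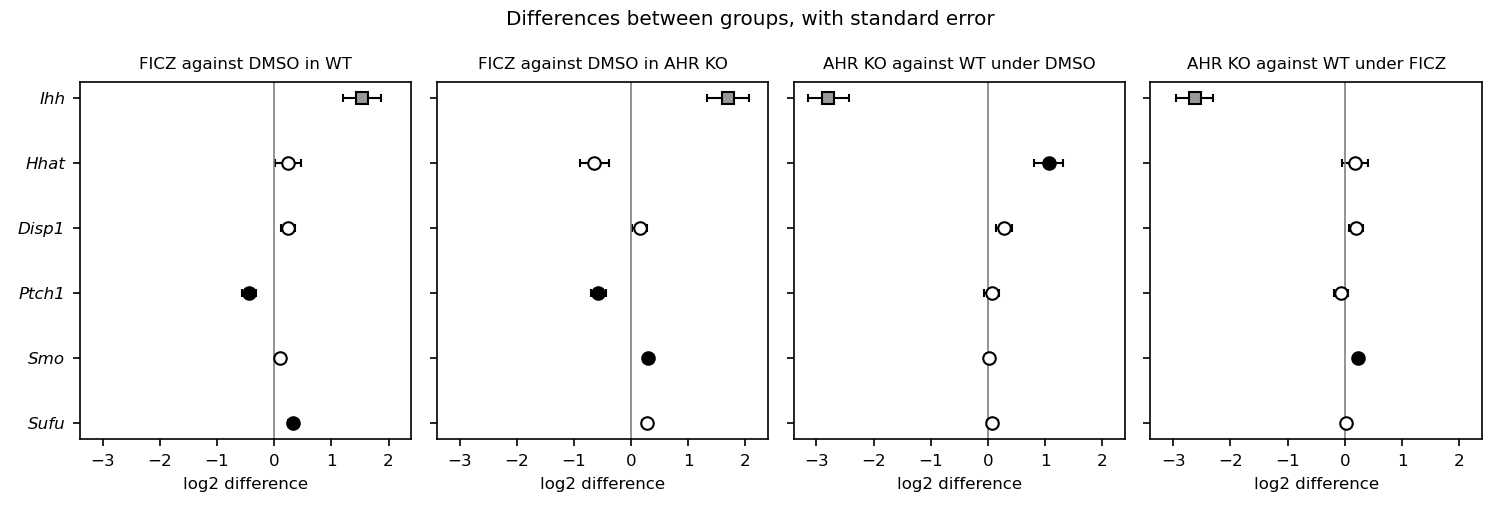
Log2 difference (x axis, with standard error) of the 6 detected Hedgehog genes (y axis) in 4 comparisons. Filled circles were called at an adjusted p under 0.05 and open circles were not; Ihh is drawn as a grey square because it was not tested. Ptch1 lies below 0 with FICZ in both genotypes, and Ihh lies furthest from 0 in every panel.

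Levels can be set side by side between genes only per exon length. Per kilobase of exon, the mean over the 9 libraries was 110 for Smo, 83.6 for Sufu, 74.4 for Ptch1, 61.1 for Disp1, 19.8 for Ihh and 4.88 for Hhat. In WT FICZ Ihh stood at 44 ± 14.4 (SD) per kilobase, against 61 ± 8.27 for Disp1 and 64.6 ± 10.6 for Ptch1, so that these neighbours lay within about their spread. In AHR KO DMSO Ihh was at 1.85 ± 0.62, below Hhat at 7.49 ± 1.43. With the length of the longest transcript in place of all exons the order of the means was unchanged (164, 142, 102, 64, 24.4 and 13.8).

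**Figure D4:**
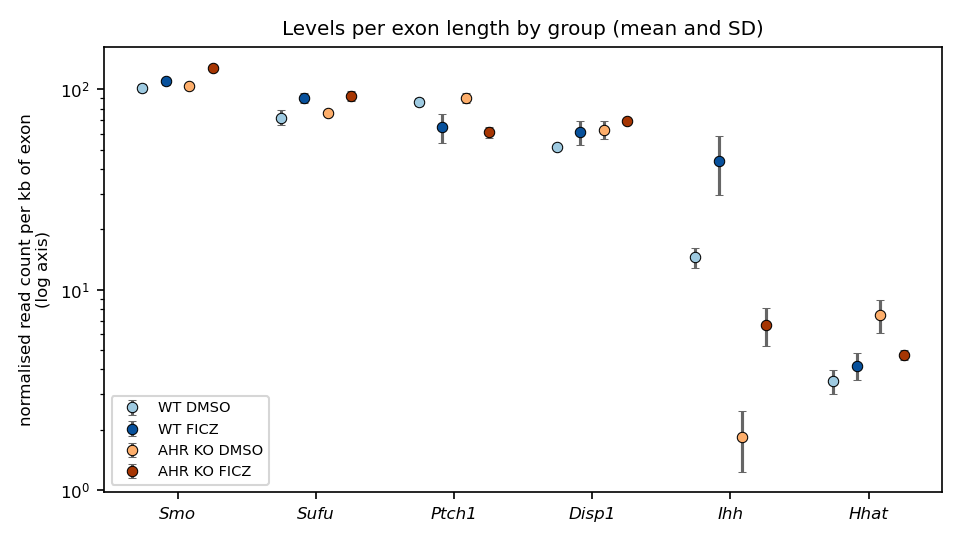
Normalised read count per kilobase of exon (y axis, log scale) of the 6 detected Hedgehog genes (x axis) in the 4 groups. Points are group means and bars are the SD over libraries. Smo, Sufu, Ptch1 and Disp1 lie between 51.4 and 127 in every group, while Ihh spans 1.85 to 44.

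Beyond these genes, 58 other genes of the pathway were examined, of which 39 entered the fit and 19 fell under the filter. Scube2, Hhatl, Hhip and Gli2 were among those listed at 0 in all 9 libraries. Gli1 was at 0 in 8 libraries and 0.802 in the other, and Gli3 never exceeded 1.1. Of the 39 genes tested, 13 were called with FICZ in WT (9 higher and 4 lower), a share of 33.3%, and 7 in AHR KO (3 higher and 4 lower), a share of 17.9%. The median log2 difference of the 39 was -0.02 in WT and 0 in AHR KO, beside -0.01 over all genes in each. The background shares over all genes are those given above, and no excess over them was tested. With the GC and length trend taken out, 4 of the pathway genes were called higher and 5 lower in WT. In AHR KO 0 were then called higher and 3 lower. Over all genes the counts were then 1070 higher and 1335 lower in WT, and 264 higher and 482 lower in AHR KO.

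Of 21 tested signal transduction genes, many of which act on Smo or Gli by ubiquitin or phosphate, 8 were called with FICZ in WT (38.1%, where 15.1% of all genes were higher and 15.7% lower) and 5 in AHR KO (23.8%, where 10.2% were higher and 9.48% lower). Mgrn1, which encodes a ubiquitin ligase, read 1325 and 1327 in WT DMSO and 1534 to 1593 in WT FICZ. In the AHR KO libraries it read 1172 and 1212 with DMSO and 1383 and 1455 with FICZ. FICZ and DMSO did not overlap in either genotype. It rose by 0.24 ± 0.05 in WT (adjusted p = 0.00911) and 0.25 ± 0.06 in AHR KO (adjusted p = 0.0171). With the GC and length trend taken out it was at 0.06 (adjusted p = 0.468) and 0.04 (0.711), and the calls held in 17 and 16 of 21 alternatives. The WT call was lost without WT DMSO replicate 2 (0.061) or 3 (0.0542), and the AHR KO call without AHR KO DMSO replicate 1 (0.128) or 3 (0.055) or AHR KO FICZ replicate 3 (0.0928).

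Cul3, the scaffold of a ligase for Gli proteins, read 5010 and 4975 in WT DMSO and 3509 to 3591 in WT FICZ. It fell by 0.49 (SE 0.05, adjusted p = 0.00022) in WT and by 0.42 (SE 0.05, adjusted p = 0.0019) in AHR KO, and was called in 21 of 21 alternatives in WT and 20 of 21 in AHR KO. With the GC and length trend taken out and the replicate block, the AHR KO difference was -0.22 and its call was lost (adjusted p = 0.0749 in limma). Cul1, the scaffold of another such ligase, fell by 0.22 in WT (adjusted p = 0.0111) and 0.20 in AHR KO (adjusted p = 0.0391), and was at -0.07 (adjusted p = 0.33) and -0.05 (0.619) with the GC and length trend taken out. The Cul1 call held in 17 of 21 alternatives in WT, where it was lost without WT DMSO replicate 2 (0.0572) or 3 (0.0753), and in 8 of 21 in AHR KO, where any AHR KO library left out ended it (0.106 to 0.161). Btrc, the gene of its substrate adaptor, read 234 and 233 in WT DMSO and 326 to 343 in WT FICZ.

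Btrc rose by 0.51 ± 0.10 with FICZ in WT (adjusted p = 0.00426), called in 21 of 21 alternatives, and was 0.42 (SE 0.10) lower in AHR KO than in WT under FICZ (adjusted p = 0.0148). The casein kinase gene Csnk1d fell by 0.17 in WT (adjusted p = 0.0245). Grk2, a kinase acting on Smo, was at 0.20 in AHR KO (adjusted p = 0.0315), and at -0.04 (adjusted p = 0.753) with the GC and length trend taken out. Cdon, a co-receptor that binds Hedgehog ligand, rose by 0.51 ± 0.13 in WT (adjusted p = 0.0172). Without WT DMSO replicate 2 or 3 the adjusted p was 0.114 or 0.0509 for Cdon and 0.191 or 0.0515 for Csnk1d, and 0.0631 for Csnk1d without WT FICZ replicate 3. The Grk2 call was lost with any AHR KO library left out (0.074 to 0.142), and the genotype call of Btrc without either AHR KO FICZ library (0.0789 and 0.0602) or WT FICZ replicate 3 (0.0511).

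Of the 10 genes of cilium and transport, on which Hedgehog signalling depends in vertebrates, 2 were called higher and 1 lower with FICZ in WT, where 15.1% of all genes were higher and 15.7% lower. In AHR KO 2 were lower and none higher, where 9.48% of all genes were lower and 10.2% higher. The second of the higher genes in WT was Tulp3, a ciliary trafficking gene named here to complete the count (0.28 ± 0.08, adjusted p = 0.0196), a call lost without either WT DMSO library or WT FICZ replicate 1 or 3 (highest adjusted p 0.117). Cep290 of the ciliary base fell by 0.51 in WT (adjusted p = 0.012) and 0.56 in AHR KO (adjusted p = 0.0181). The motor gene Dync2h1 rose by 0.50 in WT (adjusted p = 0.0172). Ift88, of the transport machinery, fell by 0.37 in AHR KO (adjusted p = 0.0367). With the GC and length trend taken out, Cep290 was at -0.35 (adjusted p = 0.0662) in WT and -0.38 (0.122) in AHR KO, and Ift88 at -0.19 (0.373). Leaving out WT DMSO replicate 2 or 3 ended the WT calls of Cep290 (0.0779 and 0.0534) and Dync2h1 (0.103 and 0.0587; also 0.0561 without WT FICZ replicate 3), and leaving out AHR KO DMSO replicate 1 or AHR KO FICZ replicate 1 ended that of Cep290 in AHR KO (0.151 and 0.097). The Ift88 call held in 10 of 21 alternatives and was lost with any AHR KO library left out (0.0744 to 0.221) or without WT FICZ replicate 3 (0.0515).

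Between genotypes, 2 of the 6 tested genes that handle ligand and heparan sulphate were called under DMSO, where 4.21% of all genes were higher and 4.83% lower, and 4 of the 6 under FICZ, where 9.48% were higher and 10.5% lower. No excess was tested. Gpc4, a glypican, was lower in AHR KO by 0.41 (SE 0.09, adjusted p = 0.0173) under DMSO and 0.33 (SE 0.08, adjusted p = 0.0179) under FICZ. Sulf2, which trims sulphate from heparan sulphate, was higher by 0.34 ± 0.07 (adjusted p = 0.0156) and 0.23 ± 0.07 (adjusted p = 0.0324). Gpc4 read 990.2 and 1129 in WT DMSO and 762 and 825 in AHR KO DMSO, without overlap. Under DMSO both calls were lost with a replicate block (0.0511 for Gpc4 and 0.0674 for Sulf2) and without AHR KO DMSO replicate 1 (0.128 and 0.115) or 3 (0.0617 and 0.0709), that of Gpc4 without WT DMSO replicate 2 (0.138) and that of Sulf2 without WT DMSO replicate 3 (0.112). Under FICZ the Gpc4 call was lost without AHR KO FICZ replicate 3 (0.14) or WT FICZ replicate 1 (0.0567) or 3 (0.0555), and the Sulf2 call with the block (0.0773) or without AHR KO FICZ replicate 1 (0.0562) or 3 (0.194) or WT FICZ replicate 3 (0.0768).

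Under FICZ, Adam17, a sheddase of membrane proteins, was higher in AHR KO by 0.21 ± 0.06 (adjusted p = 0.0404) and Ndst1, which adds sulphate to heparan, lower by 0.19 (SE 0.06, adjusted p = 0.0391). These calls held in 10 of 21 alternatives for Adam17 and 8 of 21 for Ndst1. Both were lost with no filter and with the replicate block (0.0815 and 0.074), and their adjusted p reached 0.27 without AHR KO FICZ replicate 1 for Adam17 and 0.146 without it for Ndst1 (0.12 without AHR KO FICZ replicate 3). Leaving out any DMSO library, WT FICZ replicate 1 or WT FICZ replicate 3 also ended both calls. Dync2h1 was higher in AHR KO under DMSO by 0.67 ± 0.15 (adjusted p = 0.0184), a call lost with the block (0.0557) or with any of the 4 DMSO libraries left out (0.067 to 0.121). Over all 39 genes the calls between genotypes were 3 under DMSO and 5 under FICZ, a share of 7.69% and 12.8%, beside the all-gene shares of 4.21% higher and 4.83% lower under DMSO and 9.48% higher and 10.5% lower under FICZ. No pathway gene was called by limma for the interaction (2 of 39 at an unadjusted p under 0.05).

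Counts of these calls varied with the libraries, as did the calls over all genes. Over all genes the 3928 called with FICZ in WT became 1993, 2264 and 2926 without WT DMSO replicate 2, WT DMSO replicate 3 and WT FICZ replicate 3. Those in AHR KO went from 2509 to 419, 1256, 1558 and 1214 without AHR KO DMSO replicate 1 or 3 or AHR KO FICZ replicate 1 or 3. Among the 39 pathway genes, in WT the 13 became 5 without WT DMSO replicate 2, 3 without WT DMSO replicate 3 and 8 without WT FICZ replicate 3. In AHR KO the 7 became 2 without AHR KO DMSO replicate 1, 3 without AHR KO DMSO replicate 3, 4 without AHR KO FICZ replicate 1 and 3 without AHR KO FICZ replicate 3. Between genotypes under DMSO the 3 became 0 without AHR KO DMSO replicate 3, 1 without any of the other 3 DMSO libraries, and 5 without WT FICZ replicate 2. The 1153 over all genes became 389, 452 to 585, and 1473 in the same order. Under FICZ the 5 became 0 without WT FICZ replicate 3, 1 without AHR KO FICZ replicate 3, and 2 without AHR KO FICZ replicate 1. The 2544 over all genes then became 1795, 1324 and 1938. Without WT FICZ replicate 1 or any of the 4 DMSO libraries the 5 became 3. Over all genes the count was then 1885 without WT FICZ replicate 1 and 2248 to 2365 without a DMSO library.

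**Figure D5:**
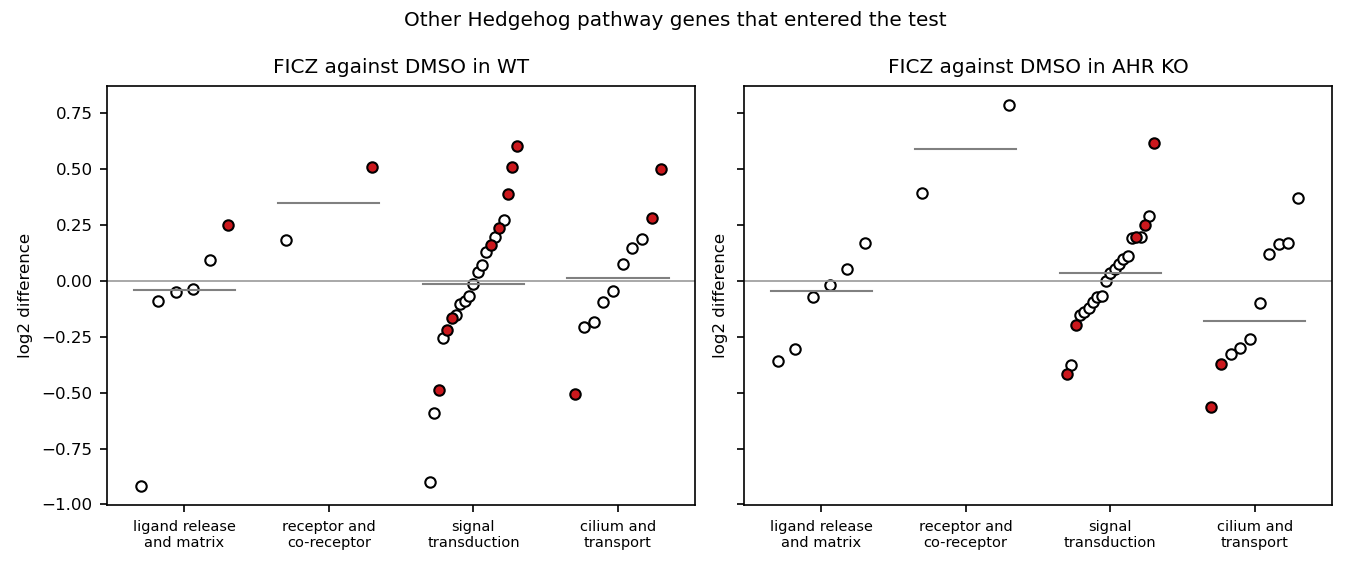
Log2 difference between FICZ and DMSO (y axis) of the 39 tested pathway genes in WT and in AHR KO, by role (x axis). Red points were called, open points were not, and grey bars are medians. As drawn, with the GC and length trend left in, calls lie on both sides of 0 in both genotypes, with 9 higher and 4 lower in WT. With that trend taken out, 0 were higher and 3 lower in AHR KO.

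Genes that respond to Hedgehog signal in receiving cells were mostly not measurable. Of 10 such genes 8 fell under the filter, and of those 4 were at 0 in all libraries. Ptch1, described above, and Bmp4, which encodes a ligand that Hedgehog induces in gut mesenchyme, entered the fit. Bmp4 read 1.69 and 5.3 in WT DMSO, 2.25 to 3.81 in WT FICZ, 25 and 15.8 in AHR KO DMSO and 18 and 30.8 in AHR KO FICZ. Every AHR KO library lay above every WT library, the opposite of Ihh, and FICZ and DMSO overlapped within each genotype. Bmp4 passed the filter through the AHR KO libraries, so the genotype difference is given as these values, without a test. Pdgfrb, described beside Ihh, ran the opposite way, and its part in the Bmp4 values was not tested.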

How the data were processed

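RNA-seq of 9 organoid libraries was analysed from 1 table of normalised read counts, a signal deposited by the authors whose values are at least 0 and often fractional. Per the labels' processing notes, STAR 2.5.2a, RSEM 1.2.31 and DESeq2 1.16.1 were used on GRCm38; the paper's methods give a different counter for these stranded libraries, and which made the table is not given in the sources used here. Only 47.8 to 60.1% of low values lay within 0.05 of whole reads, so no count model was applied. Symbols came from GENCODE M21, which matched 48435 identifiers (99.3%).

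The 12741 genes whose mean reached 10 were fitted as log2(value + 1) with limma 3.58.1 in R 4.3.3 (trended eBayes, 4 groups as coefficients, Benjamini-Hochberg over all genes, two-sided). The fit was tested on simulated data. Leaving out each library, other pseudocounts, filters and scalings, a replicate block and removal of a GC and length trend (spline, 4 df) were tried. Replicate numbers follow the description labels; the titles number the libraries differently. Libraries correlated at 0.986 to 0.991 within groups, and none were identical. Members and gene lists were chosen with earlier results of these data known. Named pathway genes were those called in a comparison, or the 4 highest and 4 lowest where more than 8 were called; some named by this rule are not reported here. Intervals from depth cover counting error only. Protein sequences were not used here.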

Additional observations from a re-analysis of the deposited data

How the results depend on the processing

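Of 1081 values of single-gene comparisons under the alternatives, 907 kept their direction and side of the threshold, 156 lost a call, 3 gained one and 15 changed sign; the causes were not tested beyond the construction of each alternative. A pseudocount of 10 gave Ihh log2 differences of 0.95 for FICZ in AHR KO, 0.42 for the interaction, -1.79 between genotypes under DMSO and -2.21 under FICZ. With the GC and length trend removed Ihh was at 1.06 in WT and 1.22 in AHR KO with FICZ, and at 0.94 and 1.22 with the replicate block as well. Ihh and Hhat have means under 100, so that filter gave no value for them.

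Removing the GC and length trend, alone or with the replicate block, left 1 of the 5 members called with FICZ in either genotype and 0 between genotypes under FICZ, and the block also gave 0 under DMSO. It turned Smo in WT to -0.15 (-0.13 with the block), Disp1 in AHR KO to -0.050 and Grk2 in AHR KO to -0.039. Pathway calls with FICZ became 9 in WT (8 with the block) and 3 in AHR KO (2 with the block). Between genotypes they became 5 under DMSO (2 with the block) and 8 under FICZ (4 with the block). Over all genes, calls with FICZ went from 3928 to 2405 in WT (1953 with the block) and from 2509 to 746 in AHR KO (562 with the block). Between genotypes they went from 1153 to 1232 under DMSO (1083 with the block) and from 2544 to 2741 under FICZ (2547 with the block).

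The replicate block alone treats same-numbered libraries as matched, across the genotypes as well as the treatments. Within a genotype, same-numbered libraries deviated together only weakly (correlations 0.0346 to 0.0498, which are not independent), so the numbers do not show pairing. Across genotypes this was not looked at. The block gave 0 members between genotypes under DMSO and under FICZ. It gave 4, 0 and 2 pathway genes with FICZ in AHR KO and between genotypes under DMSO and FICZ. Without the filter there were 0 members in either genotype comparison, 4 pathway genes with FICZ in AHR KO and 2 between genotypes under FICZ. Of all 23637 genes then tested, 1821 were called with FICZ in AHR KO, and 853 under DMSO and 2113 under FICZ between genotypes. The mean filter of 100 gave 0 members under DMSO, beside 1057 of 10241 genes. Fitting only the groups compared gave 0 members under FICZ, and 6 and 2 pathway genes between genotypes under DMSO and FICZ, beside 1624 and 1892 calls over all genes. A pseudocount of 10, robust eBayes and a random effect of line each gave 0 members under FICZ, beside 2563, 2546 and 2540 over all genes.

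With 1 library left out, members called ranged from 0 to 2 with FICZ in WT and in AHR KO, from 0 to 1 between genotypes under DMSO, and stayed at 0 under FICZ. Pathway calls ranged from 3 to 15 in WT, 2 to 10 in AHR KO, 0 to 5 under DMSO and 0 to 7 under FICZ, beside 1993 to 4135, 419 to 2957, 389 to 1473 and 1324 to 3089 over all genes. Differences that changed sign ranged from -0.016 to 0.192 (Disp1, interaction), -0.035 to 0.137 (Sufu, interaction), -0.020 to 0.071 (Smo, genotypes under DMSO), -0.0075 to 0.164 (Sufu, under DMSO), -0.213 to 0.018 (Ptch1, under FICZ) and -0.031 to 0.086 (Sufu, under FICZ); none of these was called.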

Other observations

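The genes beside Ihh on chromosome 1 were looked at after their values had been seen. Wnt10a, which encodes a Wnt ligand and lies 141136 bases from Ihh by the nearest ends, ran the other way between genotypes. It read 42.8 and 21.7 in WT DMSO and 50.5 to 74 in WT FICZ, against 216 and 195 in AHR KO DMSO and 252 and 366 in AHR KO FICZ. Every AHR KO library lay above every WT library. Cyp27a1, a sterol hydroxylase gene on the same side, read 15.9 and 22.6 in WT DMSO and 37.7 and 29.9 in AHR KO DMSO, without overlap. With FICZ it read 23.2 to 32.8 in WT and 31.8 and 26.9 in AHR KO, and the genotypes overlapped. Nhej1, a DNA repair gene and the nearest of those looked at (15467 bases), read 25.3 to 42.6 in WT and 21.5 to 39.6 in AHR KO, with overlap under either treatment. Slc23a3, a transporter gene beyond it, read 126.6 and 131.9 in WT DMSO and 149.8 and 189.2 in AHR KO DMSO. With FICZ it read 144.2 to 205.4 in WT and 239.6 and 240.4 in AHR KO. Within each treatment both AHR KO libraries lay above every WT library, although the genotypes overlapped across treatments.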
